A study of Mus musculus with 96 samples.

Results

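The effect of the Q140 allele on gene expression in mouse striatum was measured in animals labelled as lacking both copies of Pms1. The comparison consists of the 8 striatal libraries titled as heterozygous Q140 knock-in on a Pms1-/- background, called Q140 Pms1 null here, against the 8 striatal libraries titled Pms1-/- without the knock-in, called Pms1 null. These are 16 of the 96 libraries of the series, and each was assigned to its group by its sample title. Every mouse was on the C57BL/6 background, was killed at 6 months of age, and belonged to a genotype group of 4 females and 4 males. Both groups are Pms1-/-, so the loss of Pms1 is shared by cases and controls, and the Q140 allele, an expanded CAG repeat placed in the mouse Htt gene, is the difference given by the labels. The same series also holds WT, Q140, Pms1 het (Pms1+/-) and Q140 Pms1 het mice and the cortex of every animal. Of these, the 8 Q140 and 8 WT striatal libraries, which have both Pms1 copies by label, and the cortex of the 16 mice are used below for comparison. The labels do not describe how Pms1 was inactivated, and each library is a whole dissected striatum, in which fewer cells of a type and less RNA per cell cannot be told apart.

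Huntington's disease is caused by an expanded CAG repeat in the huntingtin gene, and the medium spiny neurons (MSNs) of the striatum are its most vulnerable cells. MSNs are the GABAergic projection neurons of the striatum. Those of the indirect pathway carry dopamine D2 and adenosine A2a receptors and enkephalin, and those of the direct pathway carry dopamine D1 receptors, substance P and dynorphin. PMS1 is a MutL-family mismatch repair protein, and mismatch repair factors are known modifiers of the somatic lengthening of CAG repeats in brain. Repeat length was not measured in the files used here.

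The 16 libraries held 29352852 to 47946375 counts, of which the top 10 genes held 6.43% to 8.02%. Levels are given as CPM (counts scaled to a common library size). The MSN markers were abundant in all 16 libraries: the 30 pan-MSN genes summed to between 21900 and 30640 CPM, while the 10 cortical glutamatergic markers summed to at most 97.0 CPM and the 6 blood markers to at most 21.8 CPM. Pms1 itself read 3.08 to 4.47 CPM in the Pms1 null animals, 3.59 to 4.64 CPM in the Q140 Pms1 null animals and 4.89 to 5.85 CPM in WT. Its transcript was therefore lower in Pms1 null than in WT striatum (log2 difference -0.43, edgeR quasi-likelihood adjusted p = 0.000698) but still present, and gene totals do not show which exons it holds. Htt gave no difference between the groups that passed the test, with a mean of 216.5 ± 4.58 CPM in Pms1 null against 216.0 ± 5.96 CPM in Q140 Pms1 null striatum (SD, n = 8 each). The log2 difference of Htt was -0.004 with a standard error of 0.023.

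Gene expression differed between Q140 Pms1 null and Pms1 null striatum at 2090 of 18890 genes tested, or 11.1%, at an adjusted p below 0.05. Of these, 1056 genes (5.59% of all tested) were higher and 1034 (5.47%) were lower with Q140, and over all genes tested the median log2 fold change was 0.0005. Most differences were small: 153 genes (0.81%) passed with a change of more than 1.5-fold, 57 higher and 96 lower. The 16 animals separated completely, every value of one group lying above every value of the other, at 230 genes (1.22% of those tested), 114 higher and 116 lower. Of the 2090 genes, 1195 passed in the same direction in each of the 16 fits that left out 1 library.

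The number of genes that passed varied with the animals and libraries used in the fit. Without the 3 Pms1 null females whose animal code starts with 22, an alternative chosen after the data were examined, 896 genes passed, 455 higher and 441 lower, and 811 of them were among the 2090. The 3 are most of the 4 females of that group. Wherever this fit is used below, the loss of these animals and the smaller, less balanced group cannot be told apart. Animal codes starting with 43 or 44 occur in both groups, 3 animals in each, and gave 31 genes by themselves, 11 higher and 20 lower. The other 5 animals of each group gave 440 genes, 134 higher and 306 lower. Both of these fits used those animals alone, and a fit to the 16 libraries alone gave 1401 genes. The labels do not say what the first number of a code stands for. When the deposited FPKM values were tested in place of the counts, 2553 genes passed and 70.66% of them were higher, against 50.53% in the counts.

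Genes that define medium spiny neurons were lower in the knock-in animals without Pms1. This list and the other gene lists were written with earlier results of these data known, so their counts are descriptions and not independent support. For Q140 Pms1 null against Pms1 null, the counts of every list below stand beside the shares of all genes tested, 5.59% higher and 5.47% lower. Of 30 pan-MSN genes, 17 were lower and 1, the receptor gene Gpr149, was higher (by 0.34 on the log2 scale), where 5.47% and 5.59% of all genes tested passed in these directions, and the median log2 fold change of the list was -0.19. Its summed level was 25890 to 30640 CPM in Pms1 null against 21900 to 25450 CPM in Q140 Pms1 null animals, 2 ranges that do not overlap. Of the 17 lower genes, 16 passed in each fit that left out 1 library, Gpr149 did not, and 15 genes were lower without the females of code 22. For 3 MSN genes that fell, of which Gpr6 was picked because it holds the motif and the other two because they are described in detail, the 300 bases around the RefSeq start (250 before and 50 after it, build GRCm38.p6, 5′ to 3′ on the gene's strand) are shown with any match to the cAMP response element TGACGTCA in capitals, since cAMP signalling is a main input to these neurons. Gpr6 lies on the minus strand at chr10:41072241-41072540, Scn4b on the plus strand at chr9:45138374-45138673 and Ddit4l on the plus strand at chr3:137623422-137623721.
Gpr6: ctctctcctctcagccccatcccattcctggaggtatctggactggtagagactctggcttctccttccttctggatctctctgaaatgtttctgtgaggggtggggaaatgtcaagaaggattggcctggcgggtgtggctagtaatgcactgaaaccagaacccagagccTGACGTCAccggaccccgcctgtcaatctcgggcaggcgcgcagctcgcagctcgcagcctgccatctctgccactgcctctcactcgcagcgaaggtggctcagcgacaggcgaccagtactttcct
Scn4b: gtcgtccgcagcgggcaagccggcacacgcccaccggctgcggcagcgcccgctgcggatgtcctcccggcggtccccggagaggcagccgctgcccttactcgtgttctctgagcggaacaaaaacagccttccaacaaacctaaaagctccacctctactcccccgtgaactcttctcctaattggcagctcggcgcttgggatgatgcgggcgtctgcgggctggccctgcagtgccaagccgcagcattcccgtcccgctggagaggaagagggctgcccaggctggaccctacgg
Ddit4l: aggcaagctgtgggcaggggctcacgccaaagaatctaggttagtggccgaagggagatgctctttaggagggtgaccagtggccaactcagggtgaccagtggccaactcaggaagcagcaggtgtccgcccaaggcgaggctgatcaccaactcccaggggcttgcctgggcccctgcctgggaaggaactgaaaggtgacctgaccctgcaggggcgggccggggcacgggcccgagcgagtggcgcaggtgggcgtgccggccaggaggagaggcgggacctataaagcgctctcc
Both strands were searched for TGACGTCA, which reads the same on each, and for the Egr site GCGTGGGCG. The Gpr6 window held TGACGTCA starting 78 bases before the start, and neither motif was found in the Scn4b and Ddit4l windows. Of the 59 list members that fell and had a promoter entry, 3 held TGACGTCA. Across all 32851 promoters of that table, 1.79% held TGACGTCA and 0.612% held GCGTGGGCG, and among the genes tested that had an entry 3.4% held TGACGTCA. A comparison of called with uncalled genes was void, because only 64.8% of the genes tested and 72.0% of those that fell had an entry in the table.

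Among single MSN genes the decrease was largest for Ddit4l, an inhibitor of mTOR signalling. Its lowest, median and highest values were 34.1, 42.8 and 49.8 CPM in Pms1 null animals and 16.8, 22.9 and 29.5 CPM in Q140 Pms1 null animals. The 2 sets of values did not overlap, and the log2 fold change was -0.85 with a standard error of 0.083 (edgeR adjusted p = 9.23e-10). Scn4b, the beta-4 subunit of voltage-gated sodium channels, ran from 2208 to 2706 CPM without Q140 and from 1592 to 2175 CPM with it, again with no overlap (log2 fold change -0.37, standard error 0.058, edgeR adjusted p = 1.72e-05). Ppp1r1b encodes DARPP-32, the phosphatase inhibitor through which dopamine acts on MSNs. It fell from 2794 ± 199 to 2240 ± 152 CPM (SD, n = 8 each), with the lowest Pms1 null animal at 2477 and the highest Q140 Pms1 null animal at 2445 CPM. Other genes of dopamine and cAMP signalling fell by similar amounts on the log2 scale: Pde10a and Pde1b, the phosphodiesterases of MSNs, by 0.35 and 0.28, Adcy5, their main adenylyl cyclase, by 0.26, Rgs9 by 0.33 and Arpp21 by 0.40. Ryr1, a calcium release channel of the endoplasmic reticulum, fell by 0.45, and its 2 ranges overlapped (133 to 183 CPM in Pms1 null against 80.8 to 153 CPM in Q140 Pms1 null). Not every MSN gene passed. Gnal, the olfactory-type G protein that couples D1 and A2a receptors to adenylyl cyclase, had a log2 fold change of -0.001 with a standard error of 0.027.

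**Figure D1:**
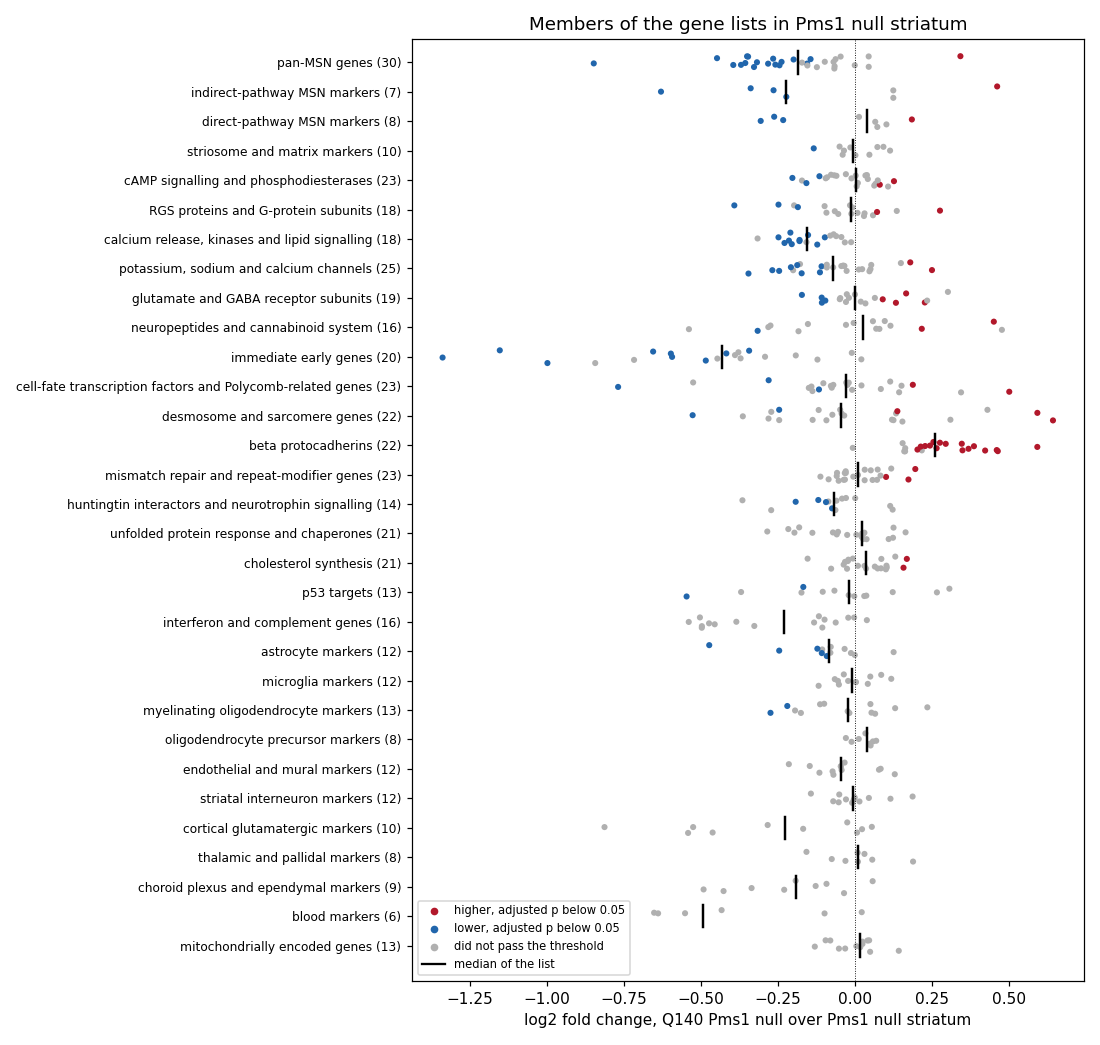
Log2 fold change (x axis, Q140 Pms1 null over Pms1 null striatum) of every tested member of the 31 gene lists (y axis, number tested in brackets). Points are genes, coloured where the adjusted p was below 0.05, and the black bar is the list median, which was -0.19 for pan-MSN genes, -0.43 for immediate early genes and 0.26 for beta protocadherins.

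Markers of indirect-pathway neurons moved in both directions. Of 7 tested, 4 fell and 1, the purinergic receptor gene P2ry1, rose by 0.46, and P2ry1 did not pass in each fit that left out 1 library. Sp9 and Ttc12 did not pass, each with a log2 fold change of 0.12, and the list median was -0.22. Penk, which encodes enkephalin, had the largest decrease. Its lowest, median and highest values were 1504, 1727 and 1924 CPM in Pms1 null against 922, 1139 and 1258 CPM in Q140 Pms1 null animals, so that the highest knock-in animal was below the lowest control. The log2 fold change was -0.63 with a standard error of 0.054 (edgeR adjusted p = 1.84e-11). Adora2a, the A2a receptor, fell by 0.26, Drd2, the D2 receptor, by 0.22, and Gpr6, a constitutively active receptor of these neurons, by 0.34, each with an edgeR adjusted p of at most 0.00132.

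Of 8 direct-pathway markers, 3 fell, 1 rose and 4 did not pass, and the list median was 0.039. Whether the 2 pathways differ was not tested. Drd1, the D1 receptor, ran from 357 to 409 CPM in Pms1 null against 290 to 334 CPM in Q140 Pms1 null animals, with no overlap (log2 fold change -0.31, standard error 0.037, edgeR adjusted p = 4.63e-08). Chrm4, the M4 muscarinic receptor, also did not overlap, at 82.0 to 101 against 69.2 to 80.4 CPM. Isl1, a transcription factor of direct-pathway neurons, rose by 0.18 (edgeR adjusted p = 0.00429), and Tac1, the substance P precursor, had a log2 fold change of 0.06 (edgeR adjusted p = 0.352). Of 10 striosome and matrix markers, 1 was lower, where 5.47% of all genes tested were lower. That marker did not pass in each fit that left out 1 library.

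Among the signalling lists, the calcium and kinase genes were lower. Of 18 genes of calcium release, kinases and lipid signalling, 10 were lower, none was higher, and all 18 had a negative log2 fold change, with a median of -0.16. Of the 10, 8 passed in each fit that left out 1 library, and 5 were lower without the females of code 22. Itpka, which phosphorylates inositol trisphosphate, had values of 111 to 136 CPM in Pms1 null against 92.8 to 109 CPM in Q140 Pms1 null striatum, with no overlap, and was at -0.18 (edgeR adjusted p = 0.0689) without those females. Prkcb, a protein kinase C isoform, also separated the groups, at 766 to 880.5 against 645 to 748 CPM (log2 fold change -0.23, edgeR adjusted p = 7.26e-07). Atp2b1, a plasma membrane calcium pump, fell by 0.21 on the log2 scale.

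Regulators of G-protein signalling and cAMP genes outside the MSN list changed in both directions. Over all genes tested, 5.47% fell and 5.59% rose. Of 18 RGS proteins and G-protein subunits, 3 fell and 2 rose. Rgs14 fell from 86.8 ± 4.14 to 66.0 ± 10.8 CPM (SD, n = 8 each), Rgs4 by 0.25 and Gnb5, the partner of Rgs9, by 0.19 on the log2 scale. Gng3, a gamma subunit of G proteins, rose, from 69.9 to 76.1 CPM in Pms1 null to 82.8 to 93.3 CPM in Q140 Pms1 null animals, with no overlap (log2 fold change 0.27, standard error 0.032, edgeR adjusted p = 2.25e-08). Of 23 cAMP genes, 3 fell and 2 rose, and 1 of each passed in each fit that left out 1 library. These were Ppp1r1a, inhibitor 1 of protein phosphatase 1, which fell by 0.20, and Prkar1b, a regulatory subunit of protein kinase A, which rose by 0.13, and both separated the groups.

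Among 25 potassium, sodium and calcium channel genes, 8 fell and 2 rose, and all 10 passed in each fit that left out 1 library. The largest decreases were those of Kcnh4 (log2 fold change -0.35, edgeR adjusted p = 0.000162), Kcnh3 (-0.27, 1.72e-06) and Kcnt1 (-0.25, 0.00167), and without the females of code 22 there were 5 lower genes and Kcnt1 was at -0.16 (edgeR adjusted p = 0.105). Kcnj3, an inwardly rectifying channel subunit, and Scn3b, a sodium channel beta subunit, rose by 0.25 and 0.18 on the log2 scale. Of 19 glutamate and GABA receptor subunits, 4 fell and 4 rose, and 2 of each passed in each fit that left out 1 library. The GABA-A subunits Gabrd, found outside synapses, and Gabrb2 moved in opposite directions, with log2 fold changes of -0.17 and 0.17. Of 16 neuropeptide and cannabinoid genes, Cnr1, the CB1 receptor, fell by 0.32, Faah, which degrades anandamide, rose by 0.22, and Cck, cholecystokinin, rose by 0.45. Without the females of code 22, Cnr1 was at -0.29 (edgeR adjusted p = 0.126) and Cck at 0.29 (edgeR adjusted p = 0.206).

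Immediate early genes, which neurons switch on within minutes of activity, were lower in the knock-in animals. Of 20 tested, 9 fell, none rose and 19 had a negative log2 fold change, with a list median of -0.43. Egr2 was among the largest decreases of the whole comparison. Its values were 15.6, 26.2 and 33.4 CPM (lowest, median and highest) in Pms1 null and 3.64, 8.73 and 26.4 CPM in Q140 Pms1 null animals. The log2 fold change of Egr2 was -1.34 with a standard error of 0.29 (edgeR adjusted p = 0.00155). Nr4a3 fell by 1.15 and Fosl2, which lies 2.60 Mb from Htt on chromosome 5, by 1.00, with standard errors of 0.33 and 0.29. Egr3 fell from 123 ± 14.6 to 87.9 ± 9.41 CPM, Homer1, whose short form is activity-regulated, from 311 ± 30.4 to 233 ± 26.8 CPM and Jun by 0.34 on the log2 scale (SD, n = 8 each). Arc and Nr4a1 had log2 fold changes of -0.72 and -0.84 with edgeR adjusted p = 0.0883 and 0.0525, and Fos and Npas4 of -0.37 and -0.38 with 0.588 and 0.446.

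One Q140 Pms1 null female, 27-3, stood apart in these genes. It had 26.4 CPM of Egr2, 50.9 CPM of Nr4a3, 71.2 CPM of Fosl2, 262 CPM of Arc and 231 CPM of Nr4a1, while the next highest knock-in animal had 11.9, 24.0, 24.8, 139 and 101 CPM. Without this animal 14 of the 20 immediate early genes were lower, and the log2 fold change of Egr2 was -1.72 (edgeR adjusted p = 3.12e-05). Of the 9 genes, 6 passed in each fit that left out 1 library. Fosl2 did not pass without Pms1 null animal 22-2 (-0.91, edgeR adjusted p = 0.0553) or without Q140 Pms1 null animal 28-4 (-0.90, 0.0512). Without the 3 females of code 22, 3 of the 20 were lower, and Nr4a3, Fosl2 and Jun were at -0.76, -0.81 and -0.28 with edgeR adjusted p = 0.281, 0.192 and 0.0703. How each animal was handled before death is not given in the labels.

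**Figure D2:**
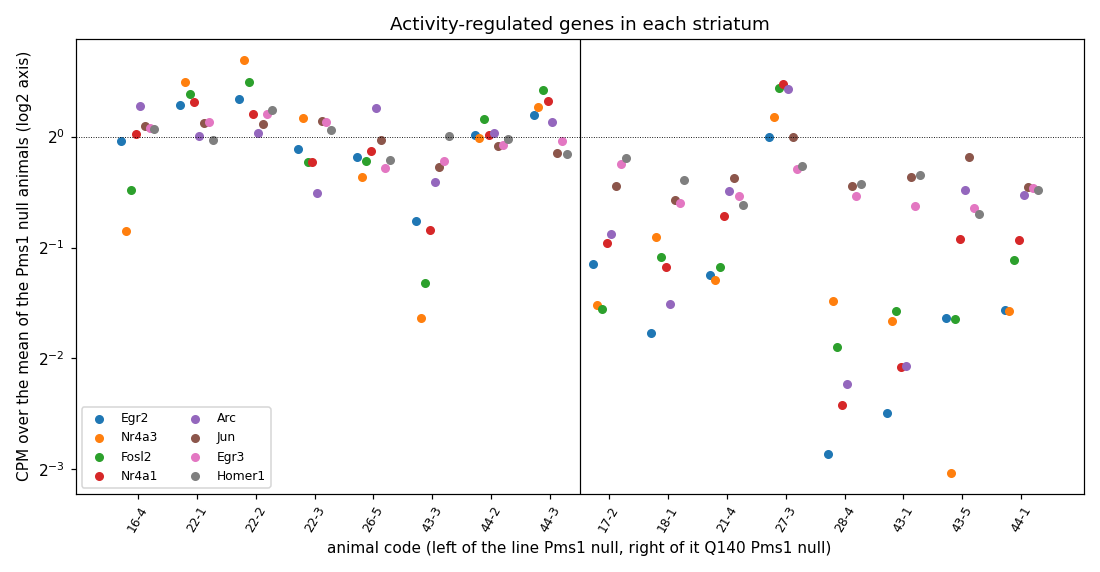
CPM of 8 activity-regulated genes (colours) in each animal (x axis), divided by the mean of the 8 Pms1 null animals (y axis, log2 scale). Most points of the Q140 Pms1 null animals lie below 1, and animal 27-3 is the exception, with Egr2 at 26.4 CPM against 3.64 to 11.9 CPM in the other knock-in animals.

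Several genes outside these lists fell further than the MSN genes. Krt9, a keratin, fell from 33.3 to 40.9 CPM in Pms1 null to 14.7 to 24.3 CPM in Q140 Pms1 null animals (log2 fold change -0.93, standard error 0.072, edgeR adjusted p = 9.04e-13). Plk5, a polo-like kinase that lacks kinase activity and is expressed in brain, ran from 31.4 to 43.6 CPM and from 14.9 to 24.5 CPM (log2 fold change -0.96, standard error 0.082, edgeR adjusted p = 1.84e-11). Slc4a11, a membrane transporter, ran from 15.5 to 18.2 CPM and from 5.40 to 10.8 CPM. None of these 3 genes had overlapping groups. Shisa2, which retains Fzd and Fgf receptors in the endoplasmic reticulum, fell from 12.5 ± 2.59 to 6.26 ± 1.39 CPM (SD, n = 8 each). Dgat2l6 had a log2 fold change of -1.05, Tmprss6, a protease that regulates hepcidin, of -1.18 and Aoah, which deacylates bacterial lipopolysaccharide, of -1.32. Cpne9, a copine, fell from 16.5 ± 2.20 to 8.89 ± 1.81 CPM (SD, n = 8 each).

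Genes outside the lists also rose. Cnih3, an auxiliary subunit of AMPA receptors, ran from 5.67 to 6.75 CPM in Pms1 null against 8.52 to 13.1 CPM in Q140 Pms1 null animals, with no overlap (log2 fold change 0.73, standard error 0.088, edgeR adjusted p = 5.23e-08). Vill, a villin-like actin-binding protein, ran from 4.12 to 5.11 CPM and from 5.52 to 8.77 CPM, also with no overlap (log2 fold change 0.64). Slitrk6, a synaptic adhesion protein, rose by 0.73, Rprm, a cell cycle inhibitor, by 0.72 and Fam196b by 0.66 on the log2 scale, and their ranges overlapped. The sarcomere gene Tnnt2 rose by 0.64 and Ttn by 0.59, and Myh7 fell by 0.53. They are among 22 desmosome and sarcomere genes, of which 3 rose and 2 fell, where 5.59% of all genes tested rose and 5.47% fell.

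The beta protocadherins, clustered cadherins that give neurons their surface identity, rose as a family. Of 22 tested, 16 were higher and none was lower, the list median was 0.26, and 21 had a positive log2 fold change. Their summed level was 191 to 215 CPM in Pms1 null against 218 to 265 CPM in Q140 Pms1 null animals, without overlap. Pcdhb3 ran from 2.93 to 4.07 CPM and from 4.37 to 6.15 CPM (log2 fold change 0.59, standard error 0.087, edgeR adjusted p = 3.39e-06). Pcdhb19 and Pcdhb20 rose by 0.42 and 0.37 on the log2 scale and separated the groups, and Pcdhb8 had a log2 fold change of -0.01 (edgeR adjusted p = 0.982). Of the 16, 13 passed in each fit that left out 1 library, and 13 genes were higher without the females of code 22. Members of this family are similar in sequence and single-exon, and the sources used here do not say how reads shared between them were counted, so values of single members are uncertain.

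Among 23 cell-fate and Polycomb-related genes, 2 rose and 3 fell, where 5.59% of all genes tested rose and 5.47% fell. Sfmbt2, a Polycomb-associated protein with MBT domains, rose from 1.82 to 2.82 CPM in Pms1 null to 2.87 to 4.85 CPM in Q140 Pms1 null animals. Mafa, a transcription factor, had a mean of 2.38 ± 0.442 CPM without Q140 and of 1.40 ± 0.356 CPM with it (SD, n = 8 each), a decrease that passed. Wt1, a zinc finger transcription factor, stayed near the limit of detection at 0 to 0.127 CPM and 0 to 0.340 CPM, and its log2 fold change was 0.34 with a standard error of 0.62.

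Among genes with an established name and a mean of at least 1 CPM, the 4 largest increases were those of Rmrp, Rpph1, Mir6236 and Lars2, and they rested on 1 library. Rmrp and Rpph1 are RNA components of the ribonucleases MRP and P, Mir6236 is annotated as a microRNA gene and Lars2 encodes mitochondrial leucyl-tRNA synthetase. Q140 Pms1 null male 44-1 had 7.12 CPM of Rmrp, 11.8 CPM of Rpph1, 81.4 CPM of Mir6236 and 909.5 CPM of Lars2, while the group medians were 0.892, 1.18, 12.8 and 147 CPM. Without this library their log2 fold changes were 1.13, 0.63, 0.50 and 0.45, and their edgeR adjusted p-values were 0.0746, 0.332, 0.369 and 0.237. The same library had the highest share of counts in its 10 most abundant genes, 8.02%. Without it 1791 of the 2090 genes still passed.

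**Figure D3:**
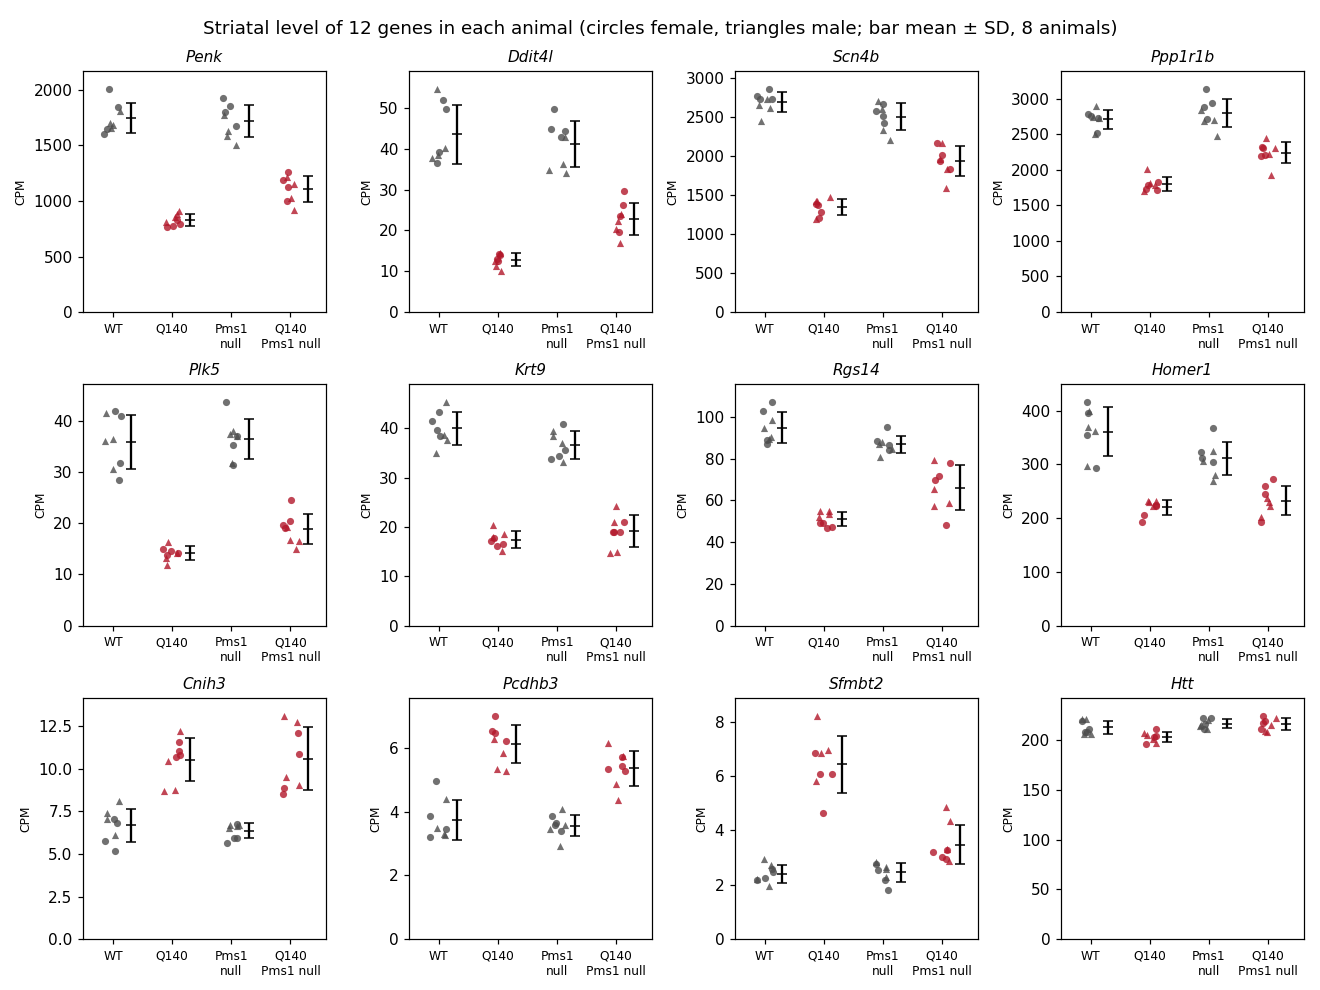
CPM (y axis, from 0) of 12 genes in each striatum of the WT, Q140, Pms1 null and Q140 Pms1 null groups (x axis), with circles for females, triangles for males and bars for the mean ± SD of 8 animals. The mean of Penk was 1720 CPM in Pms1 null against 1111 CPM in Q140 Pms1 null animals, and Htt is near 216 CPM in both Pms1 null groups.

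Lists of other pathways tied to Huntington's disease are read against the 5.59% of all genes that were higher and the 5.47% that were lower. Of 23 mismatch repair and repeat-modifier genes, 3 rose and none fell, among them Rrm2b, a ribonucleotide reductase subunit, by 0.19 and Mlh3, a MutL protein, by 0.10 on the log2 scale. Rrm2b ran from 48.0 to 53.7 CPM in Pms1 null against 55.6 to 61.9 CPM in Q140 Pms1 null animals, without overlap. Mlh3 was at 0.095 (edgeR adjusted p = 0.0846) without the females of code 22. Msh3, a MutS protein that recognises small loops, had a log2 fold change of 0.03 (edgeR adjusted p = 0.685). Of 14 huntingtin interactors and neurotrophin genes, 4 were lower, among them Hip1 (-0.12) and the neurotrophin receptor gene Ntrk3 (-0.19, and -0.18 with edgeR adjusted p = 0.0849 without those females). Of these 4, 2 passed in each fit that left out 1 library, and 1 of the 14 was lower without those females. Among 21 genes of the unfolded protein response and chaperones none passed by edgeR or by DESeq2 (0 genes each) and 2 had an unadjusted p below 0.05, and of 21 cholesterol synthesis genes 2 rose, and 0 without the females of code 22. Of 13 p53 targets 2 fell, with Cdkn1a at -0.55 (edgeR adjusted p = 0.00225) and, without the females of code 22, at -0.26 (edgeR adjusted p = 0.237). None of the 16 interferon and complement genes passed the edgeR test, with 3 at an unadjusted p below 0.05 and 0 called by DESeq2. In that list 15 had a negative log2 fold change and the list median was -0.23.

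Markers of other cell types were compared with the same fit, in which 5.59% of all genes tested were higher and 5.47% lower. Of 12 astrocyte markers, 5 were lower and none was higher. Their summed level was 4474 to 4966 CPM in Pms1 null against 4251 to 4653 CPM in Q140 Pms1 null animals. The gap junction genes Gjb6 and Gja1 had the largest decreases, -0.47 and -0.25 on the log2 scale. The 3 Pms1 null females of code 22 had the 3 highest values of Gjb6, at 36.4, 32.1 and 37.7 CPM against 18.2 to 26.7 CPM in the other 5, and without them Gjb6 was at -0.19 (edgeR adjusted p = 0.4), Gja1 was at -0.15 (edgeR adjusted p = 0.236), and none of the 12 astrocyte markers passed. Of 13 markers of myelinating oligodendrocytes, 2 were lower, with Cldn11 at -0.27, and none passed without those females. Their sums were 5512 to 7190 CPM and 4993 to 7248 CPM.

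No marker of microglia (12 tested, summed level 418 to 445 against 399 to 466 CPM), oligodendrocyte precursors (8 tested), endothelial and mural cells (12), striatal interneurons (12), cortical glutamatergic neurons (10), thalamic and pallidal cells (8), choroid plexus and ependyma (9) or blood (6) passed the edgeR test. Of these 77 markers DESeq2 called 1, and 6 had an unadjusted p below 0.05. Of 13 mitochondrially encoded genes, 0 passed by edgeR, 0 by DESeq2 and 0 had an unadjusted p below 0.05. None of the 12 interneuron markers separated the groups, where 1.22% of all genes tested did, and their sums were 441 to 500 and 438 to 480.5 CPM. How far the makeup of the dissected tissue enters the differences of the MSN genes was not tested.

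More genes differed when Pms1 was present. Against WT, the Q140 striatum differed at 5909 genes, or 31.3% of those tested, in the same fit, and the 2 comparisons share no library. The effect itself differed between the Pms1 null and the WT background at 954 genes (5.05%), 637 with a positive and 317 with a negative difference. A further fit used only animals with codes of 16 or more, which leaves 2 WT females and 3 Q140 males. There 0 genes passed the edgeR test for this difference, and 2126 had an unadjusted p below 0.05. With so few animals, WT all female and Q140 all male, that fit cannot show whether the difference is absent. Every animal of the Pms1 null and Q140 Pms1 null groups has a code of 16 or more, so animal code and Pms1 background cannot be fully told apart.

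The genes affected were largely shared. Of the 2090 genes that passed without Pms1, 1578 (75.5%) passed in the same direction with Pms1, and these were 26.71% of the 5909. Among them 767 were higher and 811 lower, and 3 genes passed in opposite directions. The 2090 genes had a median effect, taken in their own direction, of 0.17 on the log2 scale without Pms1 and of 0.20 with Pms1. The 5909 genes had a median of 0.20 with Pms1 and 0.083 without, and 5083 of them (86.02%) had the same sign in both. In each of these pairs the first value is raised by the choice of the genes that passed there. A gene passing in a single background was seldom shown to differ between backgrounds: the difference passed at 36 of the 509 genes that passed only without Pms1 and at 629 of the 4328 that passed only with it.

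**Figure D4:**
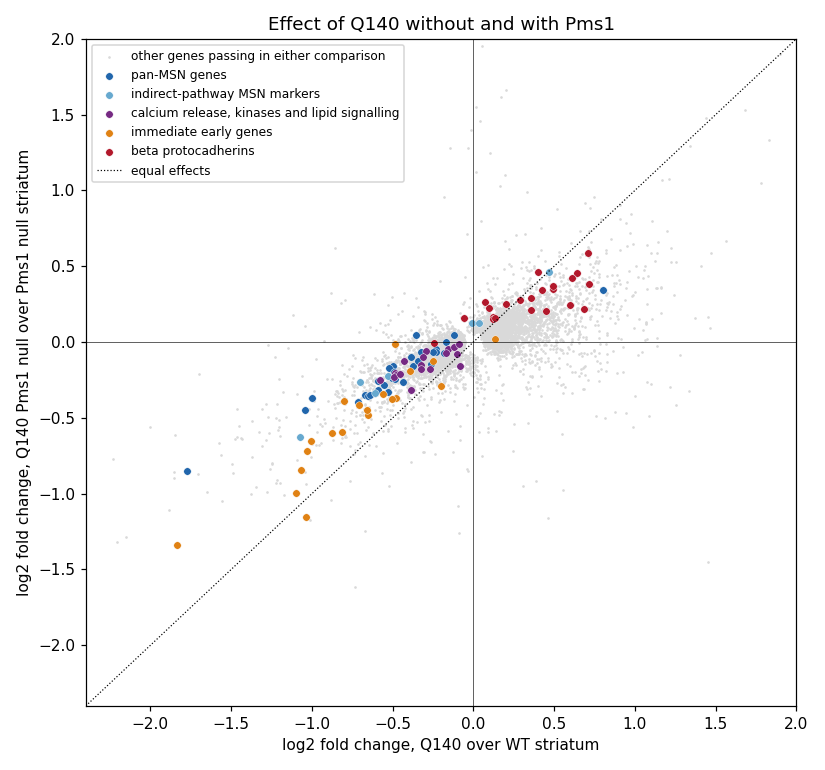
Log2 fold change of Q140 Pms1 null over Pms1 null striatum (y axis) against that of Q140 over WT striatum (x axis) for the 6418 genes that passed in either comparison, with members of 5 lists coloured. 6 genes lie beyond the axes. List medians, x axis first, were -0.49 and -0.19 for pan-MSN genes, -0.69 and -0.43 for immediate early genes and 0.38 and 0.26 for beta protocadherins.

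In MSN genes the effect was smaller without Pms1, a contrast in which animal code and Pms1 background cannot be fully told apart. On the WT background 28 of the 30 pan-MSN genes fell and 1 rose, where 15.4% of all genes tested fell and 15.9% rose. The list median was -0.49 there against -0.19 without Pms1. The difference passed at 22 of 30, all positive, where 3.37% of all genes tested had a positive and 1.68% a negative difference that passed. Scn4b fell by 1.00 with Pms1 and by 0.37 without it (difference 0.63, standard error 0.083, edgeR adjusted p = 5.58e-06). For Ddit4l the log2 fold changes were -1.77 and -0.85 (difference 0.92, edgeR adjusted p = 5.22e-06) and for Penk -1.07 and -0.63 (difference 0.45, edgeR adjusted p = 0.000213). Mafa was at -2.23 with Pms1 and -0.77 without (difference 1.46), and Cpne9 at -1.86 and -0.90 (difference 0.96). Among genes that rose, Sfmbt2 was at 1.41 and 0.50 (difference -0.91, edgeR adjusted p = 5.89e-05) and Wt1 at 3.02 and 0.34 (difference -2.68, edgeR adjusted p = 0.0364).

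Over all genes tested, 3.37% had a positive and 1.68% a negative difference that passed. Signalling lists also held genes with a called difference: 8 positive and 1 negative of 18 RGS proteins and G-protein subunits, 8 of 18 calcium and kinase genes, 6 of 19 glutamate and GABA receptor subunits and 4 of 7 indirect-pathway markers, all positive in the last 3 lists. For the immediate early genes the medians were -0.69 with Pms1 and -0.43 without, and the difference passed at 0 of 20 genes by edgeR and at 1 by DESeq2, with 1 at an unadjusted p below 0.05. Of the 22 beta protocadherins, 14 rose with Pms1 and 16 without, where 15.9% and 5.59% of all genes tested rose. The medians were 0.38 and 0.26, and the difference passed at 2, both negative. Cnih3 had log2 fold changes of 0.66 with Pms1 and 0.73 without (difference 0.07, standard error 0.12), Slitrk6 of 0.72 and 0.73, and Egr2 of -1.84 and -1.34 (difference 0.50, standard error 0.41). For Krt9 the difference was 0.27 (edgeR adjusted p = 0.115). With standard errors of this size, smaller differences in these genes could not be detected.

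The effect was also compared between the sexes. No gene passed the edgeR test for a difference of the effect between the sexes, DESeq2 called 1, and 1329 had an unadjusted p below 0.05. The log2 fold change of Penk was -0.67 in females and -0.59 in males, and that of Gjb6 was -0.70 and -0.18. Most Pms1 null females have code 22 and no male does, so sex and animal code cannot be fully told apart here. The females of code 22 had the highest Gjb6 values of their group, as given above. Their part in the gap between the sexes was not tested.

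In the cortex of the same 16 animals few genes differed. There, 8 of 18711 genes (0.0428%) passed the edgeR test, DESeq2 called 17, and 1399 had an unadjusted p below 0.05. Of the 2090 striatal genes, 2052 were tested in cortex and 6 passed there in the same direction, among them Gm2420, Abhd1 and Glul, glutamine synthetase. Glul was at -0.23 in striatum and -0.17 in cortex, and in striatum at -0.12 (edgeR adjusted p = 0.121) without the females of code 22. The median cortical effect of the 2052, in the direction of the striatum, was 0.024 on the log2 scale. The effect differed between striatum and cortex at 215 of 19029 genes (1.13%), and at 556 (2.92%) when the animal was kept as a block, 259 of them more positive and 297 more negative in striatum. The genes with the smallest p for this difference were Rasl10a, Cpne9, Penk, Pde1b and Plk5, all lower in striatum. Penk, for instance, had a log2 fold change of -0.63 in striatum and 0.01 in cortex, and Plk5 of -0.96 and 0.12.

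The share of genes that passed was larger near Htt on chromosome 5. Htt lies at chr5:34761740-34912534 (GRCm38, GENCODE M21). Within 10 Mb of it, 36 of 200 tested genes (18.0%) passed, 21 higher and 15 lower, against 109 of 1103 (9.88%) on the rest of chromosome 5 and 1941 of 17512 (11.1%) on other chromosomes. Of the 36, 30 also passed in the same direction in Q140 against WT, and 3 passed in cortex. Gm2420, a transcribed pseudogene 2.03 Mb from Htt at chr5:32720330-32736194, was at 0 to 0.0506 CPM in Pms1 null against at 0.61 to 1.28 CPM in Q140 Pms1 null animals. Its fitted log2 fold change was 5.37 in striatum (edgeR adjusted p = 1.67e-16), 5.17 in Q140 against WT and 3.62 in cortex. Abhd1, 3.81 Mb from Htt, rose by 0.52 in striatum and 0.91 in cortex, and was at 0.35 in striatum (edgeR adjusted p = 0.0932) without the females of code 22. Fosl2, named above among the immediate early genes, is also among the 36. Effects of the knock-in allele and of the chromosome segment inherited with it cannot be told apart here.

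**Figure D5:**
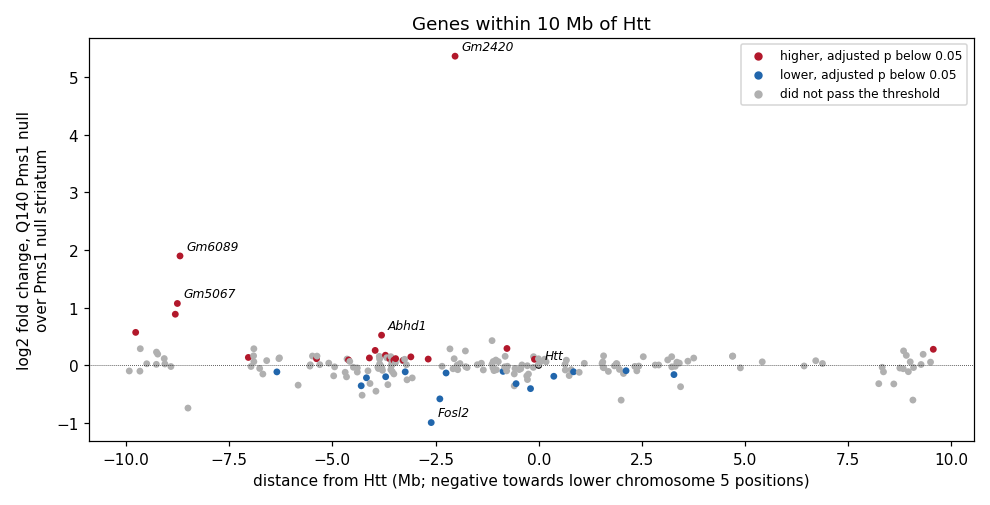
Log2 fold change in Pms1 null striatum (y axis) of each tested gene within 10 Mb of Htt against its distance from Htt (x axis, Mb), coloured where the adjusted p was below 0.05. Gm2420 stands at 5.37, the pseudogenes Gm6089 and Gm5067 at 1.90 and 1.07, and Htt at 0.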

How the data were processed

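RNA from the striatum and cortex of the same mice was sequenced as stranded libraries, per the labels' protocols. The authors deposited a table of read counts per gene and a table of FPKM values (scaled to gene length and library size), and the submitters' processing notes name STAR 2.7.5c, SAMtools 1.10, HTSeq 0.12.3 and GRCm38/mm10. The sources used here do not say whether counting used strand. Groups came from the sample titles. The members and gene lists were chosen with earlier results of these data known.

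From the deposited counts, edgeR 4.0.16 (R 4.3.3) fitted 1 quasi-likelihood model to all 48 striatal libraries, with genotype and sex as terms, TMM scaling and edgeR's filter on low counts. Of 48795 genes listed, 18890 were tested. P-values are 2-sided with Benjamini-Hochberg adjustment over all genes tested, and "passed", "rose" and "fell" mean an adjusted p below 0.05. Groups do not overlap where no CPM of one lies within the range of the other. Cortex was fitted in the same way, and the tissue difference on the 32 libraries of both groups and tissues. DESeq2 1.42.0, other scalings, filters and subsets of animals, and limma 3.58.1 on log2(FPKM + 0.1) were alternatives. The fits were tested on simulated data.

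Striatal and cortical libraries carry the same animal codes. Deviations from the group means correlated at a median of 0.129 over the 16 animals, with 11 above 0.1, and the tissue difference is therefore also given with the animal as a block. Counts differed beyond sampling noise in each of 24 pairs of libraries sharing genotype and sex (chi-square over degrees of freedom at least 4.18). Genes named in the text were the targeted genes, the 10 largest increases and decreases with a mean of at least 1 CPM, an established name and females and males moving alike, the largest changes of each list (at most 3 in a direction), the largest differences between Pms1 backgrounds and the 5 smallest p-values of the tissue difference. Further list members, such as Gnal, Tac1, Fos, Npas4, Arc, Nr4a1, Msh3, Egr3, Homer1, Jun and Pcdhb8, and genes near Htt were chosen after their values were seen. Library totals were 29352852 to 47946375 counts. Some genes the rule would name are not reported here.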

Additional observations from a re-analysis of the deposited data

Results flagged for a closer look

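A value is listed here when its gap to the nearest animal of its group was large against the range of the 8 animals (Dixon's test at 95%), which chance gives in about 1 of 20 groups. Q140 Pms1 null female 27-3 was high in Egr2 (26.36 CPM), Nr4a3 (50.89 CPM), Fosl2 (71.25 CPM), Arc (261.9 CPM) and Nr4a1 (230.6 CPM). Q140 Pms1 null male 44-1 was high in Rmrp (7.122 CPM), Rpph1 (11.85 CPM), Mir6236 (81.43 CPM) and Lars2 (909.5 CPM). Other single animals of that group were low in Ppp1r1a (18-1, 62.14 CPM), Faah (17-2, 13.29 CPM) and Abhd1 (43-5, 4.418 CPM), and 43-5 was high in Cck (8.666 CPM). In the Pms1 null group, Pms1 was low in 22-3 (3.084 CPM), Kcnh4 in 16-4 (77.66 CPM) and Cnr1 in 44-3 (364.7 CPM), while Mir6236 was high in 22-1 (17.64 CPM), Isl1 in 44-3 (20.34 CPM), Mafa in 22-2 (3.365 CPM) and Abhd1 in 26-5 (7.644 CPM).

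The effect of Q140 also differed between the Pms1 null and the WT background by the edgeR interaction test. Animal code and Pms1 background cannot be fully told apart here. The effect difference is given on the log2 scale (Pms1 null minus WT background). Among MSN genes it was 0.92 for Ddit4l, 0.63 for Scn4b, 0.59 for Ryr1, 0.33 for Adcy5, 0.32 for Pde10a, 0.32 for Arpp21, 0.27 for Pde1b, 0.27 for Ppp1r1b, 0.20 for Rgs9 and 0.17 for Gnal. In indirect- and direct-pathway markers it was 0.45 for Penk, 0.44 for Adora2a, 0.31 for Drd2, 0.27 for Gpr6, 0.24 for Drd1 and 0.23 for Chrm4. Signalling genes gave 0.51 for Rgs14, 0.46 for Rgs4, 0.38 for Ppp1r1a, 0.33 for Itpka, 0.27 for Prkcb, 0.26 for Atp2b1, 0.21 for Gnb5 and -0.17 for Gng3. Channels, receptors and cannabinoid genes gave 0.48 for Cnr1, 0.39 for Kcnh4, 0.32 for Gabrd and -0.34 for Faah. For other genes it was 1.46 for Mafa, 0.96 for Cpne9, 0.39 for Plk5, -0.44 for Tnnt2, -0.60 for Gjb6, -0.91 for Sfmbt2 and -2.68 for Wt1.

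Between striatum and cortex of the Pms1 null groups, the log2 difference of the effect (striatum minus cortex) was taken from the fit without the animal as a block. It was -1.08 for Plk5, -1.04 for Cpne9, -0.75 for Rasl10a, -0.63 for Penk and -0.31 for Pde1b.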

How the results depend on the processing

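The 2090 genes of the comparison were 2277 with DESeq2, 2058 with its size factors in edgeR and 1401 in a fit to the 16 libraries alone. Subsets of these 16, each fitted by itself, gave fewer: 401 in females only, 225 in males only, 440 with codes below 43 and 31 with codes 43 and 44. The fit without the 3 animals of code 22, which kept the other striatal libraries, gave 896. Leaving out 1 library gave 1542 (without Q140 Pms1 null 18-1) to 2217 genes. The difference between Pms1 backgrounds passed at 954 genes, at 763 to 1069 without 1 library and at 0 with codes of 16 or more. The sex difference passed at 0 genes by edgeR and 1 by DESeq2. In cortex 8 genes became 17 with DESeq2 and 1 in the fit to the 16 libraries alone. With the animal as a replicate block, the tissue difference passed at 556 in place of 215 genes. Called on both backgrounds were 1578 genes in 1 direction, and 795 at an adjusted p below 0.01. Of 118 genes that passed and were named by the rule or picked for the text, 91 passed in the same direction in each fit without 1 library. Some of the 118 were picked after their values were seen. In a subset, 2 of them changed sign: Tpm2, at 0.0716 with codes 43 and 44, and Gabrr2, at 0.0014 in males only. The cause of these changes was not tested, and the subsets hold fewer samples.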
